A study of Mus musculus with 14 samples.

Results

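Brown adipocytes burn fuel to make heat. Ucp1, the uncoupling protein of their mitochondrial inner membrane, lets protons return to the matrix without making ATP. The genes described here belong to that program. They are Ucp1, Cidea (a lipid droplet protein abundant in brown fat), Elovl3 (an enzyme that lengthens very long fatty acids and is induced by cold in brown fat), Cox8b and Cox7a1 (tissue-specific subunits of cytochrome c oxidase), Fabp3 (the heart form of the fatty acid binding proteins) and Cpt1b (the muscle form of the enzyme that admits fatty acids to mitochondria). Cox8b, Cox7a1, Fabp3 and Cpt1b are also known from heart and skeletal muscle, and Fabp3 is also made by mammary epithelium. In mice, fat pads around mammary glands are mostly white fat in which brown adipocytes can be interspersed.

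Members were the probe sets of the array whose platform annotation names 1 of these 7 genes. They came to 8 probe sets of 6 genes among 12488 probe sets and 8252 genes. No probe set carried the symbol Cpt1b, so that gene was not analysed here. Ucp1 and Cox8b had 2 probe sets each. The others had 1. Elovl3 was too dim for the filter on low signals, and the remaining 7 probe sets of 5 genes were among the 8616 tested.

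The arrays held total RNA of mouse mammary tissue, 1 sample per array and 14 in all. Set B (Tumor_setB, replicates 80 and 81) holds 2 MMTV-neu tumors, a second set taken to see whether the first changes recur. The first set (Tumor) holds 5 MMTV-neu tumors, replicates 22, 24, 26, 50 and 52. Adjacent glands (AdjacentNeu, replicates 23, 25, 49 and 51) are 4 preneoplastic MMTV-neu glands that surrounded a tumor. Wild-type glands (AMWT, replicates 40, 41 and 42) are 3 pools of RNA, each from 5 mice without the transgene, named age-matched in the labels. Pool 40 came from mice of 31 weeks with a background of 87.5% FVB and 12.5% CF-1. Pools 41 and 42 came from mice of 41 weeks with 97% FVB and 3% CF-1. In MMTV-neu mice the oncogene neu (erbB2) is expressed in mammary epithelium from the mouse mammary tumor virus promoter. All set B, Tumor and AdjacentNeu samples carry it. The ages and strains of these mice are not given in the sources used here. The labels mention no pooling for tumors and adjacent glands, and leave unsaid whether any of them shared a mouse. The p-values therefore reflect variation among these samples alone.

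Values are the authors' intensities on a linear scale. Their trimmed means were nearly equal over the arrays, so they were taken as already scaled. The number of arrays limits the precision. For tests, intensities below 101 (101.42, the 20th percentile of all values) were set to that floor, and fold changes are differences of log2 values ± their standard error in limma. Where all arrays of a group lay at the floor, "at least" is written before the fold or difference. A probe set was called at a Benjamini-Hochberg adjusted p below 0.05 over all probe sets tested. The labels give 5 array lots. Lot 2001815 holds tumors 22, 24 and 26 and adjacent glands 23 and 25. Lot 2004907 holds adjacent glands 49 and 51 and pool 40. Lot 2004097 holds tumors 50 and 52, lot 2003877 holds pools 41 and 42, and lot 2006609 holds set B. By these numbers, no lot holds both a tumor and a wild-type pool.

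Promoters are shown because 3 of these genes, Ucp1, Cox8b and Cox7a1, tracked each other from gland to gland, whereas Fabp3 followed a pattern of its own. The table of RefSeq promoters (GRCm38.p6, 250 bases before and 50 after the start of the gene) held 4 of the 7 members. Capitals mark matches, on either strand, to AGGTCA (the core bound by nuclear receptors), TGACG (a core of the cAMP response element), CAGCTG (an E-box bound by muscle regulators) or TATAAA (the TATA box). None of the 4 motifs overlapped in these sequences. The windows are Ucp1 at chr8:83290098-83290397 (plus strand), Cox8b at chr7:140900397-140900696 (minus strand), Cox7a1 at chr7:30183921-30184220 (plus strand) and Fabp3 at chr4:130308488-130308787 (plus strand).
Ucp1: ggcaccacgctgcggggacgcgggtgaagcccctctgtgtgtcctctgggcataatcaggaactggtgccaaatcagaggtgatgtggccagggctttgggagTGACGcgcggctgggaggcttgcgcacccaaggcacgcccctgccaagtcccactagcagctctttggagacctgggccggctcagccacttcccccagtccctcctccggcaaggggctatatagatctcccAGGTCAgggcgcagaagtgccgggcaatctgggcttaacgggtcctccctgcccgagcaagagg
Cox8b: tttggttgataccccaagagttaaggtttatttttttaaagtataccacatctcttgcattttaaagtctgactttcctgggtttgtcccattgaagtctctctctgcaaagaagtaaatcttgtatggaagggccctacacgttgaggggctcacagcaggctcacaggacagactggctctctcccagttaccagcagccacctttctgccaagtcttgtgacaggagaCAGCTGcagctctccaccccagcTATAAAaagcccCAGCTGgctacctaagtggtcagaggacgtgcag
Cox7a1: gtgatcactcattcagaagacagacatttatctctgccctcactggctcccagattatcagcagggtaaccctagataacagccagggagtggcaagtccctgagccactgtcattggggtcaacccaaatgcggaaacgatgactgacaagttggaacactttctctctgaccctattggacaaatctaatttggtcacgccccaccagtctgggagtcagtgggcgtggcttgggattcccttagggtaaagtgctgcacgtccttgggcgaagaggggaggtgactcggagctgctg
Fabp3: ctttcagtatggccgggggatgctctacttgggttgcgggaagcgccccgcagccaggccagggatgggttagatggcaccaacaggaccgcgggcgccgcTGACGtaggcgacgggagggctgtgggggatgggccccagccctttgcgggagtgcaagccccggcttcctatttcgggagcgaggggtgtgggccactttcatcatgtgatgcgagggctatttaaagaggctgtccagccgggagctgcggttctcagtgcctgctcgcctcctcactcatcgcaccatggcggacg
In the Ucp1 window TGACG began at position -147 from the start of the gene and AGGTCA at position -14. The Cox8b window held CAGCTG at positions -19 and 17 and TATAAA at position 5. TGACG began at position -149 in the Fabp3 window. The letters of none of these motifs stood in the Cox7a1 window. Of all 32851 promoters of that length, 16.3% held AGGTCA, 20.8% TGACG, 16.3% CAGCTG and 13.6% TATAAA. These matches describe the windows and are not evidence of binding.

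The comparison of tumors with wild-type gland asks what differs once a tumor has formed. Every brown fat probe set tested was lower in tumors. All 7 were called lower, beside 14.1% of the 8616 probe sets tested, and their median log2 difference was -2.88, beside 0.16 over all probe sets. Both Ucp1 probe sets and Cox8b (_at probe set) passed the filter on low signals through pools and adjacent glands alone. Fabp3 exceeded the level of that filter in tumor 24 but in no other tumor of either set, so it too passed only with the glands. That favored a fall of all these in any comparison of tumors with glands, so the shares are not like for like. Ucp1 (_at probe set) and Cidea had the largest differences among them.

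On its _at probe set Ucp1 read 77.2, 94.4, 68.1, 50 and 66.4 in the 5 tumors, against 9009.7, 15889.9 and 6571 in the 3 wild-type pools. All 5 tumors lay under the floor while the pools were among the bright signals of the array. The difference was at least 96.6-fold lower in tumors (log2 -6.59 ± 1.23, adjusted p = 0.000783). Its error draws on the spread within all groups, with an SD of 0 in the floored tumors, 0.65 in pools and 3.75 in adjacent glands. The other Ucp1 probe set, of suffix _f_at, is of a kind that can also bind related transcripts. It read 210.5, 395, 159.9, 188 and 352 in tumors, against 1157, 1425 and 1103 in the pools, with a log2 difference of -2.32 ± 0.51 (adjusted p = 0.00266). Both probe sets separated tumors from pools without overlap, as 16.1% of all probe sets tested did in that direction.

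Cidea read 423, 1025, 146.5, 304 and 416 in tumors, against 8514, 9882 and 6757 in the pools. It stayed above the floor in every tumor, with tumor 24 the highest. The fall was 21.8-fold (log2 -4.44 ± 0.72, adjusted p = 0.000226). Elovl3 read 35.3, 136.8, 80.2, 99.9 and 86.9 in tumors, against 177, 243 and 240 (239.7) in the pools, so that only tumor 24 exceeded the floor. With no filter on dim probe sets its log2 difference was -1.02 ± 0.39, which did not pass (adjusted p = 0.0951 in limma).

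The oxidase subunits had smaller differences than Ucp1 (_at probe set) and Cidea. Cox8b on its _r_at probe set read 808.5, 1395, 1286, 891.5 and 1349 in tumors, against 6519.9, 10347 and 7728 in the pools. Its second probe set, of suffix _at, read 124, 97.4, 206, 122 and 205 in tumors, against 1413, 1697 and 1552 in the pools. They gave falls of 7.2-fold and 10.7-fold (log2 -2.85 ± 0.36 and -3.41 ± 0.39, adjusted p = 2.34e-05 and 7.71e-06). Cox7a1 read 850.5, 486, 416.5, 388 and 437 in tumors, against 1225, 1484 and 1225 in the pools. Its fall of 2.65-fold (log2 -1.41 ± 0.50) passed narrowly, at an adjusted p of 0.0459, and lost the call on leaving out 9 of the 14 arrays in turn, wild-type pools and set B tumors among them.

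Fabp3 read 114, 913, 185, 87 and 17.5 in tumors, against 1378, 1892 and 918 in the pools. Tumors varied widely, from below the floor to just short of the lowest pool. Its difference was -2.88 ± 0.96 (log2, adjusted p = 0.0334), and leaving out any of 7 arrays (3 pools and tumors 22, 26, 50 and 52) ended the call.

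**Figure D1:**
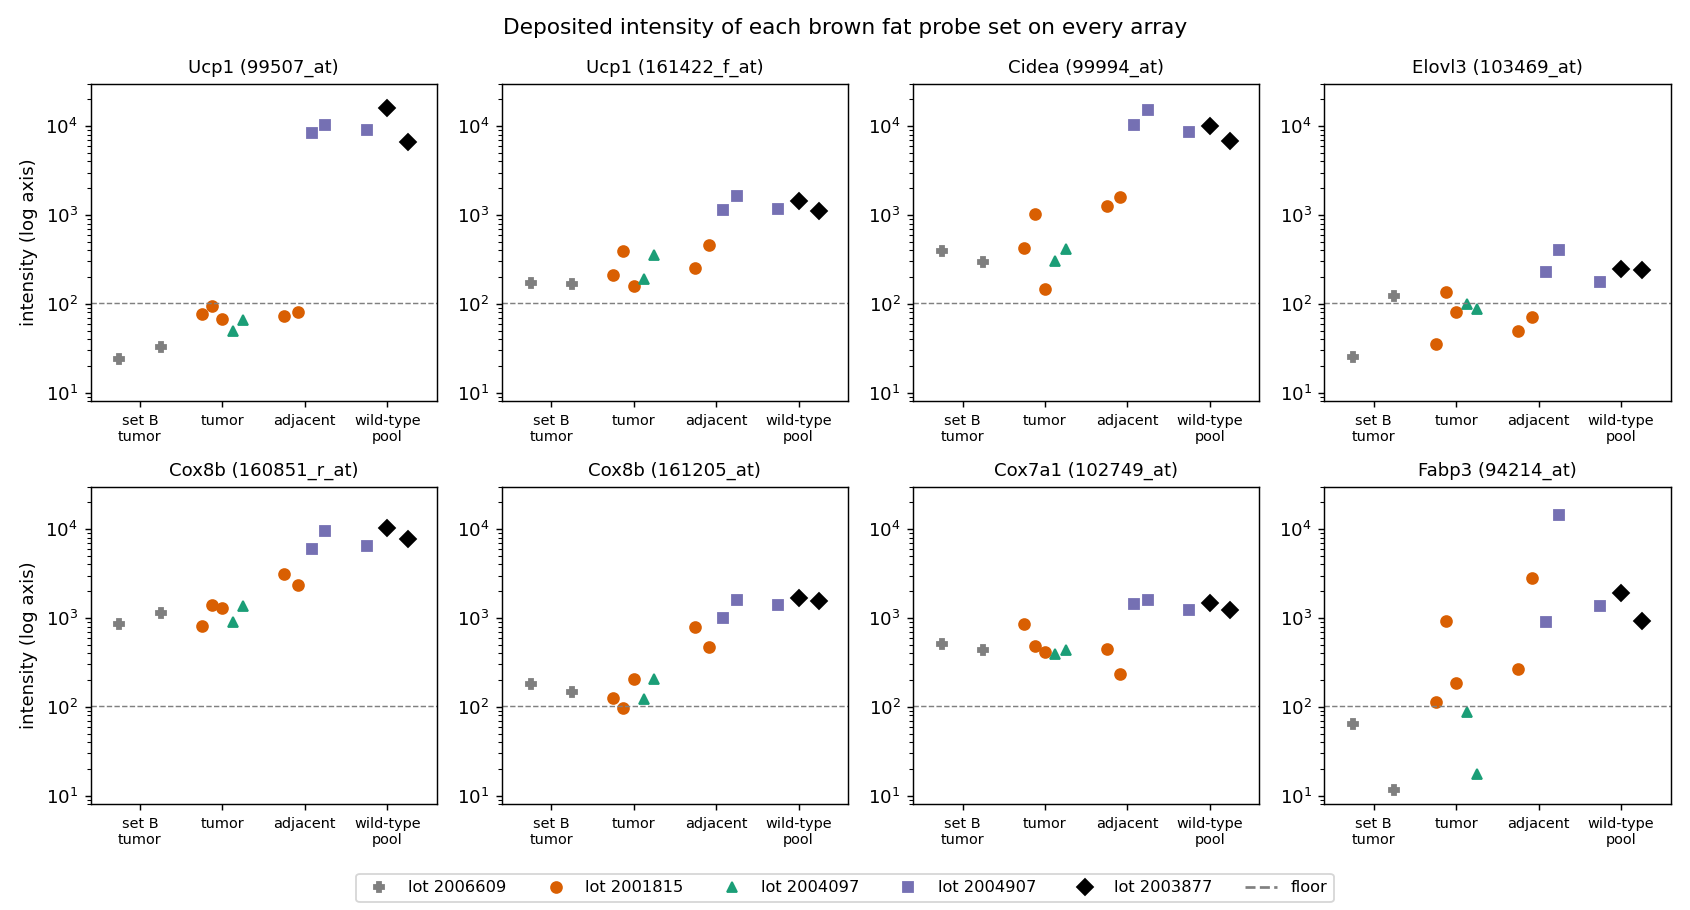
Intensity of each brown fat probe set (log axis) on every array, grouped as set B tumors, tumors, adjacent glands and wild-type pools, with the marker giving the array lot and the dashed line the floor of 101. For Ucp1 (_at probe set), adjacent glands 49 and 51 (lot 2004907) lie near the pools. Glands 23 and 25 (lot 2001815) lie far below them there, at 73.2 and 81.3.

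The same tumors differed from the pools in genes of white fat, muscle, endothelium and epithelium. White adipocyte genes fell in 21 of 21 cases, with a median of -4.32. Among them were Retn, the hormone resistin (-8.03 ± 0.44), and Cidec, the white fat relative of Cidea, which was at the floor in every tumor (at least -7.08 ± 0.27, limma adjusted p = 2.96e-09 and 4.35e-11). Fast skeletal muscle genes fell in 17 of 20 cases, with a median of -3.37, and 1 rose. Endothelial genes fell in 6 of 8 cases, with a median of -1.94, and also in 6 of 8 against the adjacent glands. Luminal epithelial genes rose in 8 of 11 cases. Summed intensity of the 21 white adipocyte genes was 61110 to 98570 in tumors and 549241 to 784364 in the pools, and that of the 20 fast muscle genes 8130 to 20608 in tumors and 95210 to 176267 in the pools. None of the white adipocyte genes was at the floor in the pools, and 5 to 7 were in a tumor. The log2 ratio of the 3' to the 5' control probe set of actin, a sign of RNA integrity, was 0.141 to 0.214 in set B and 0.0775 to 0.759 in the first tumors, against 0.904 to 1.51 in the pools, without overlap. The part of these shifts in the falls of Ucp1, Cidea and the others was not tested. In bulk RNA, fewer brown adipocytes and less RNA per brown adipocyte cannot be told apart.

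Genes that share a pathway with the members fell to differing degrees. Fatty acid oxidation genes fell in 16 of 17 cases in tumors, with a median of -1.83. Among them were Hadhb, a subunit of the mitochondrial trifunctional protein (-2.63 ± 0.34), and Pdk4, a kinase that restrains the use of glucose (-3.85 ± 0.50), both at a limma adjusted p of 2.99e-05. Cpt1a and Cpt2, the partners of the unmeasured Cpt1b in the carnitine shuttle, fell, with differences of -1.90 ± 0.28 and -2.32 ± 0.21 (limma adjusted p = 0.000111 and 7.06e-07). Of the other cytochrome c oxidase subunits, 3 of 9 fell, with a median of -0.39. Cox6a2, the heart and muscle subunit, and its general counterpart Cox6a1 both fell, by differences of -3.98 ± 0.89 and -0.98 ± 0.18 (limma adjusted p = 0.00316 and 0.000576). Cox7a2, the general counterpart of Cox7a1, differed by -0.39 ± 0.18 and did not pass (adjusted p = 0.115 in limma).

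Of 28 other genes linked to brown adipocytes, 14 were on the array, 8 were tested and 4 fell in tumors. These were Nnat (-5.91 ± 0.55), Irf4, a transcription factor also of lymphocytes (at least -2.35 ± 0.55), Lhx8 (-2.27 ± 0.64) and Ebf2, a transcription factor of brown preadipocytes (-1.54 ± 0.32), at limma adjusted p of 9.46e-07, 0.00428, 0.0136 and 0.00187. Ppara and Esrra, nuclear receptors that act on oxidative genes in many tissues, differed by -0.11 ± 0.33 and 0.01 ± 0.19 and did not pass (adjusted p = 0.832 and 0.971 in limma). Dio2 and Tnfrsf9, the rest of those tested, differed by -1.02 ± 0.41 and 0.16 ± 0.63 and did not pass either (adjusted p = 0.0709 and 0.87 in limma). Ucp3, the muscle relative of Ucp1, read 282 to 392 in tumors and 1089 to 1443 in the pools, a fall of 1.89 ± 0.30 (limma adjusted p = 0.000219). Elovl6, which lengthens shorter fatty acids than Elovl3, and Fabp4, the adipocyte form beside Fabp3, both fell, by differences of -4.06 ± 0.55 and -2.31 ± 0.28 (limma adjusted p = 4.24e-05 and 1.61e-05). Fabp5, Elovl1 and Elovl5 differed by -0.50 ± 0.29, 0.85 ± 0.42 and 0.16 ± 0.26, none of which passed (adjusted p = 0.203, 0.147 and 0.676 in limma). Cox8a and Cideb, relatives of Cox8b and Cidea, were too dim to test, at 13.3 to 292.6 and 44.1 to 137.8 over all arrays.

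Set B repeats the comparison on 2 further tumors. Ucp1 (_at probe set) read 23.9 and 32.8 in set B, Cidea 392.7 and 298, Cox8b (_r_at probe set) 852 and 1129, Cox7a1 504 and 434.5 and Fabp3 64.8 and 11.7. Each of these values lay below all 3 pools. The same held for both set B tumors in 27.5% of all probe sets tested. Against the pools, 6 of the 7 members were called lower, beside 12% of all probe sets tested. The log2 differences were at least -6.59 ± 1.54 for Ucp1, -4.60 ± 0.90 for Cidea, -3.04 ± 0.45 for Cox8b (_r_at probe set) and at least -3.72 ± 1.20 for Fabp3 (limma adjusted p = 0.00561, 0.00164, 0.000183 and 0.0342). Cox7a1 differed by -1.48 ± 0.63 and did not pass (adjusted p = 0.105 in limma), though it did without adjacent gland 25 (limma adjusted p = 0.0308). Fabp3 lost its call without any 1 of the 3 pools or either set B tumor. White adipocyte genes fell in 20 of 21 cases and fatty acid oxidation genes in 13 of 17. Set B and the first tumors share the wild-type pools. Between set B and the first tumors no member was called in limma, beside 0% of all probe sets called lower. At an unadjusted p below 0.05 in limma stood 0 of 7, beside 10.8% of all probe sets in either direction. The difference was -0.15 for Cidea, with a 95% confidence interval of -1.90 to 1.59, and -0.08 for Cox7a1, with one of -1.30 to 1.15. These intervals are wide, and set B and its lot cannot be told apart.

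Tumors were next set against the adjacent glands. Of the 7 members, 5 were called lower in tumors, beside 9.04% of all probe sets tested. They were Cidea, both probe sets of Cox8b, Fabp3 and the _f_at probe set of Ucp1. Cidea differed by -3.46 ± 0.66 and Cox8b by -2.01 ± 0.33 and -2.60 ± 0.36 (limma adjusted p = 0.00179, 0.000588 and 0.000103), with every tumor below every adjacent gland in all 3. Of all probe sets tested, 7.85% had every tumor below every adjacent gland. Fabp3 differed by -3.29 ± 0.88 (limma adjusted p = 0.0188), although tumor 24, at 912.6, read above adjacent glands 23 and 49, at 268.7 and 909.2. Its call ended without adjacent gland 25 or 51. The _f_at probe set fell by 1.47 ± 0.47 at an adjusted p of 0.0452 in limma, and its call was lost on leaving out 10 of the 14 arrays in turn. Ucp1 on its _at probe set, at the floor in all tumors, did not pass (log2 at least -3.25 ± 1.13, adjusted p = 0.0677 in limma), and 2 of the 4 adjacent glands were at the floor too. It did pass without adjacent gland 23 or 25, at -4.33 either way (limma adjusted p = 0.0126 and 0.0116). Cox7a1 differed by -0.50 ± 0.46 and did not pass (adjusted p = 0.56 in limma). White adipocyte genes fell in 19 of 21 cases, fatty acid oxidation genes in 12 of 17 and other brown adipocyte genes in 3 of 8, while 0 of the 9 other oxidase subunits were called in limma.

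Within lot 2001815, which holds 3 tumors and 2 adjacent glands, 2 of 7 members were called lower in tumors, beside 4.76% of all probe sets. Both were of Cox8b, at -1.26 ± 0.31 and -2.15 ± 0.43 (limma adjusted p = 0.0308 and 0.00998). Cidea differed by -1.82 ± 0.58 (adjusted p = 0.0879 in limma), Fabp3 by -1.70 ± 1.17 (adjusted p = 0.482 in limma) and Cox7a1 by 0.78 ± 0.37 (adjusted p = 0.279 in limma). Ucp1 on its _at probe set was at the floor on all 5 arrays of that lot and gives no fold there. A fit with lot as a block can set tumors against pools only through adjacent glands of both lots. In it none of the members was called lower in tumors than in the pools (0 of 7 in limma), with Ucp1 at 0.025 (_at probe set) and -0.29 (_f_at probe set), Cidea at -1.27, Cox8b at -1.07 and -2.30, Cox7a1 at 1.07 and Fabp3 at -0.32. Lot and group cannot be told apart for that comparison.

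The adjacent glands as a group are where single samples diverged most. Against the pools none of the 7 members was called in limma (0 of 7, beside 0.453% of all probe sets called lower). At an unadjusted p below 0.05 in limma stood 2 of the 7, beside 14.8% of all probe sets in either direction. Ucp1 differed by -3.35 ± 1.28, Cidea by -0.98 ± 0.75, Cox7a1 by -0.90 ± 0.53 and Fabp3 by 0.41 ± 1.01 (adjusted p = 0.237, 0.564, 0.447 and 0.884 in limma). These means join glands that differ widely.

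Ucp1 (_at probe set) read 8266 (8265.5) and 10162 in adjacent glands 49 and 51 of lot 2004907, against 73.2 and 81.3 in adjacent glands 23 and 25 of lot 2001815. The first pair lay within the range of the wild-type pools and the second within that of the tumors. The second probe set of Ucp1 read 1132 and 1627.5 in glands 49 and 51, against 253 and 453.5 in glands 23 and 25. It shows the same split on a smaller scale.

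Cidea read 10207 and 15262 in glands 49 and 51, against 1257 and 1575.5 in glands 23 and 25. The first pair exceeded all 3 pools, and the second lay between the pools and the tumors. Elovl3 read 226 and 398 in glands 49 and 51, against 49.2 and 71.6 in glands 23 and 25, which are under the floor. The oxidase subunits kept this order. Cox8b on its _r_at probe set read 5901 and 9392 in glands 49 and 51, against 3124 and 2350.5 in glands 23 and 25, and its other probe set 1009 and 1603.5 against 799 and 467. Cox7a1 read 1419.7 and 1596 in glands 49 and 51, against 453 and 233 in glands 23 and 25. Glands 23 and 25 were thus as low in Cox7a1 as tumors, which read 388 to 850.5.

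Fabp3 did not follow the split. It read 909 and 14285 in glands 49 and 51, against 269 and 2839 in glands 23 and 25. Gland 51 was far above every pool, while gland 49 lay just below the lowest pool. Glands of the same lot differed more from each other than the lots did.

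In a model with the adjacent glands divided by lot, 3 of 7 members were called higher in lot 2004907 than in lot 2001815, beside 0.174% of all probe sets higher and 0.279% lower. They were Ucp1 (at least 90.4-fold, log2 6.50 ± 0.39), Cidea (8.87-fold, 3.15 ± 0.59) and Cox7a1 (4.63-fold, 2.21 ± 0.41), at limma adjusted p of 3.56e-07, 0.0269 and 0.0269. For Ucp1 (_at probe set), the floor gave both glands of lot 2001815 and all tumors the same value. Those groups then showed no spread, so its error and p understate the variation. The second Ucp1 probe set differed by 2.002 ± 0.48, Cox8b by 1.46 ± 0.34 and 1.06 ± 0.46 and Fabp3 by 2.05 ± 1.24 (adjusted p = 0.0737, 0.0684, 0.23 and 0.384 in limma). Elovl3, with no filter on dim probe sets, was at least 2.96-fold higher (log2 1.56 ± 0.26, limma adjusted p = 0.0272). All 7 differences were positive, with a median of 2.05, beside -0.08 over all probe sets. This division was made with these values known, with 2 glands on each side, and gland and lot cannot be told apart. Ucp1 was called without any 1 array, whereas Cidea and Cox7a1 lost their calls without gland 25, 49 or 51.

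**Figure D2:**
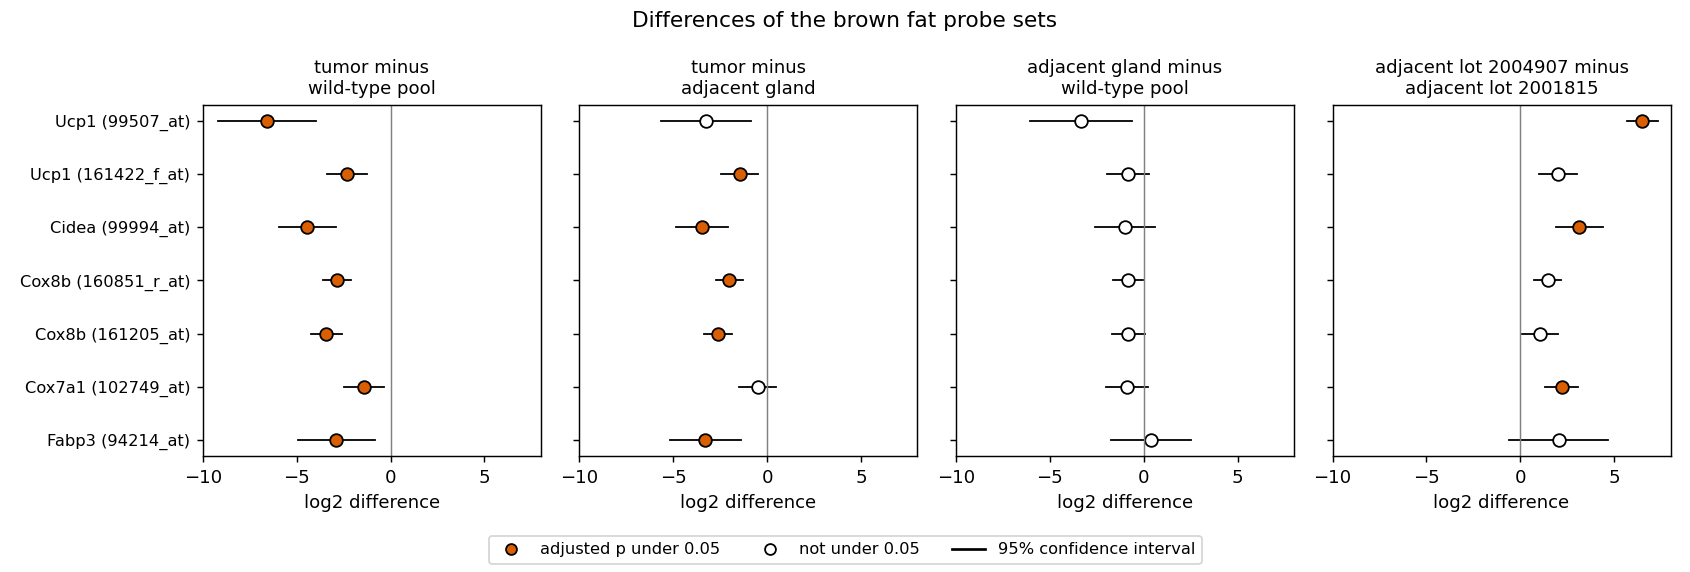
Log2 difference of each brown fat probe set tested, with its 95% confidence interval, in 4 comparisons, filled where the adjusted p is below 0.05. All 7 members are filled for tumor minus wild-type pool and none for adjacent gland minus pool, while 3 are filled for lot 2004907 minus lot 2001815 of the adjacent glands.

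Setting each pair of adjacent glands against the pools was added after the values were seen. Here too the floored groups narrow the error and interval of Ucp1 (_at probe set). Glands 23 and 25 were lower than the pools in 5 of 7 members, beside 1.68% of all probe sets. These were Ucp1 (at least -6.59 ± 0.35 on its _at probe set and -1.85 ± 0.44 on its _f_at probe set), Cidea (-2.56 ± 0.54), Cox8b (-1.57 ± 0.31 on its _r_at probe set) and Cox7a1 (-2.01 ± 0.37), at limma adjusted p of 7.81e-08, 0.0335, 0.0217, 0.0152 and 0.0127. In the same comparison 8 of 21 white adipocyte genes were lower (median -1.15), 7 of 17 fatty acid oxidation genes (median -1.11) and 0 of 20 fast muscle genes (1 higher, median -0.98). None of the members was called between glands 49 and 51 and the pools (0 of 7 in limma, beside 0.406% of all probe sets called lower). Ucp1 differed there by -0.10, with a 95% confidence interval of -0.85 to 0.66, and Cox7a1 by 0.20, with one of -0.59 to 0.9995. Fast muscle genes were lower in 16 of 20 cases there (median -3.32), and 1 of 21 white adipocyte genes was lower (median -0.89). Within lot 2004907, against pool 40 alone, Ucp1 differed by 0.025 ± 0.49, Cidea by 0.55 ± 0.78 and Cox7a1 by 0.30 ± 0.50 (adjusted p = 0.999 for each in limma). With 1 pool in that lot, these errors take their spread from the other groups and assume that pool 40 varies as they do, so they do not show that the glands and the pool are alike.

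Muscle genes moved the other way between these glands. In lot 2004907 against lot 2001815, 10 of 20 fast skeletal muscle genes were lower, with a median of -2.35, as was 1 of 9 genes of slow and heart muscle. The fast muscle genes include Acta1, the actin of skeletal muscle (-6.58 ± 1.22), and Myh4, a fast myosin heavy chain (at least -5.73 ± 0.83), at limma adjusted p of 0.0269 and 0.00693. Summed fast muscle intensity was 9128 to 9637 in glands 49 and 51, against 56585 to 67625 in glands 23 and 25. In the pools, fast muscle signal, Cox8b and Cox7a1 were all high. Cox6a2, the oxidase subunit of heart and muscle, read 95.2 and 85.7 in glands 49 and 51, against 2235 and 1829 in glands 23 and 25, a difference of at least -4.32 ± 0.56 (limma adjusted p = 0.00305).

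White fat signal did not divide in this way. None of 21 white adipocyte genes was called between the lots in limma, with a median of 0.45. Their summed intensity was 345121 to 522617 in glands 49 and 51 and 332262 to 354792 in glands 23 and 25. Cidec read 4478 and 9231 in glands 49 and 51 and 7478 and 3649 in glands 23 and 25, which overlap. Hadhb was the only 1 of 17 fatty acid oxidation genes called, higher by 1.59 ± 0.24 (limma adjusted p = 0.00725). The median of that list was 0.71, and 16 of its 17 differences were positive, beside 3857 of 8616 over all probe sets. Its summed intensity was 93907 to 134946 in glands 49 and 51 and 57446 to 79115 in glands 23 and 25. Of the other brown adipocyte genes 0 of 8 were called in limma, with a median of 0.18. Irf4 had the smallest p among them (1.88 ± 0.57, adjusted p = 0.116 in limma). Of the list for B and T cells of lymph nodes, the 4 tested genes were Cd79a, Cd79b, Ms4a1 and Ptprc, none specific to T cells. All 4 were higher in glands 49 and 51, with a median of 1.46, and none was called in limma. The actin 3' to 5' ratio was 0.38 and 0.63 (log2) in glands 49 and 51, against 1.13 and 1.52 in glands 23 and 25 and 0.90 to 1.51 in the pools. The part of muscle, lymphocytes and RNA integrity in the split of the brown fat genes was not tested.

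**Figure D3:**
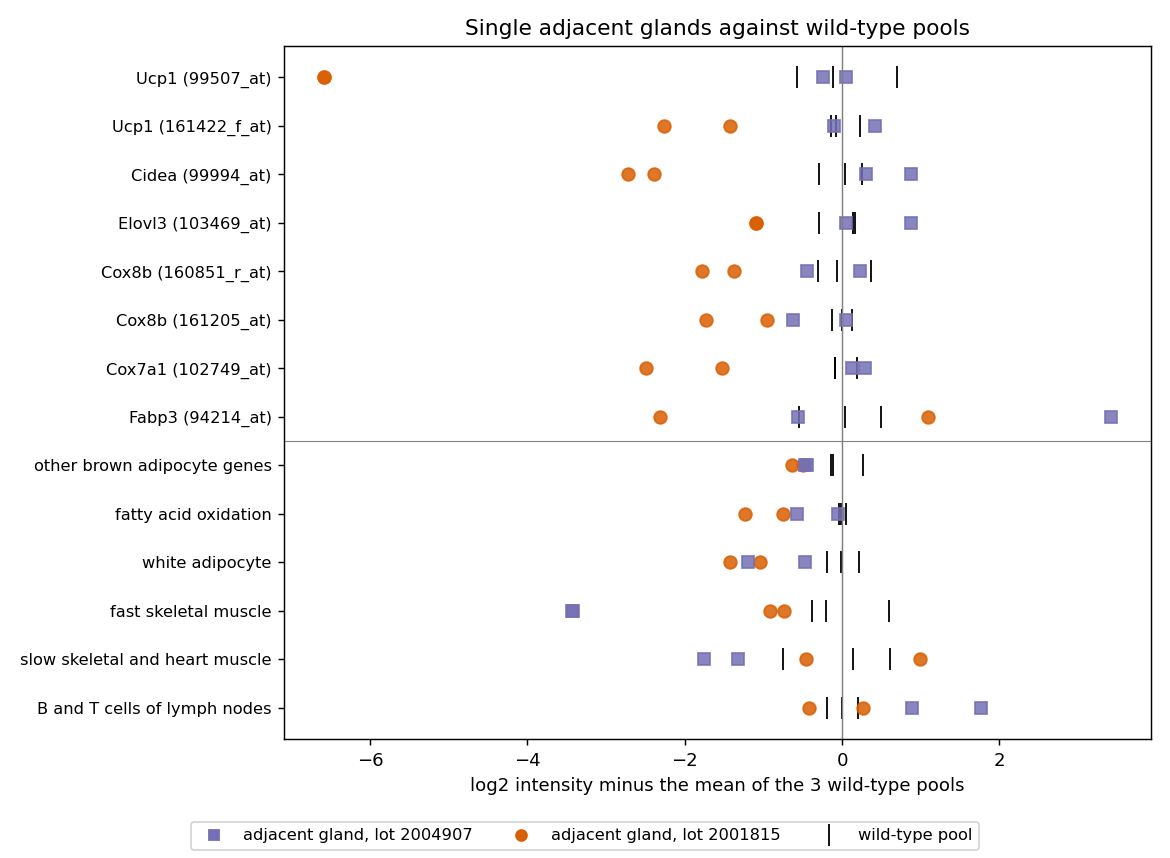
Log2 intensity minus the mean of the 3 wild-type pools, for each brown fat probe set and for the mean of each gene list, in the 4 adjacent glands (squares lot 2004907, circles lot 2001815) and the pools (ticks). Ucp1 on its _at probe set sits at -6.59, set by the floor, in both glands of lot 2001815, where 1 circle hides the other. In lot 2004907 it sits at -0.24 and 0.05. The _f_at probe set sits at -2.27 and -1.43 in lot 2001815 and at -0.109 and 0.415 in lot 2004907. The fast muscle list sits at -3.43 and -3.42 in lot 2004907 (there, and for Elovl3 in lot 2001815, the markers overlie each other too).

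The spread among single adjacent glands was larger than that among pools for all 8 member probe sets. It was also larger for 73.9% of all probe sets tested. The SD of log2 Ucp1 (_at probe set) was 3.75 among the 4 adjacent glands and 0.65 among the 3 pools, beside medians over all probe sets of 0.42 and 0.25. Only 1 of the 8616 probe sets varied more among adjacent glands than Ucp1. Fabp3 ranked 12 (SD 2.44, against 0.52 in pools), Cidea 50 (1.84, against 0.28) and Cox7a1 244 (1.34, against 0.16). Cox8b varied least among the members, with SD of 0.90 and 0.74, against 0.34 and 0.13 in pools. Pool 41 was the brightest of the pools for Ucp1, Cidea, Cox8b, Cox7a1, Elovl3 and Fabp3 alike. A pool averages 5 mice, so the spread among mice without the transgene is not seen in these values.

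**Figure D4:**
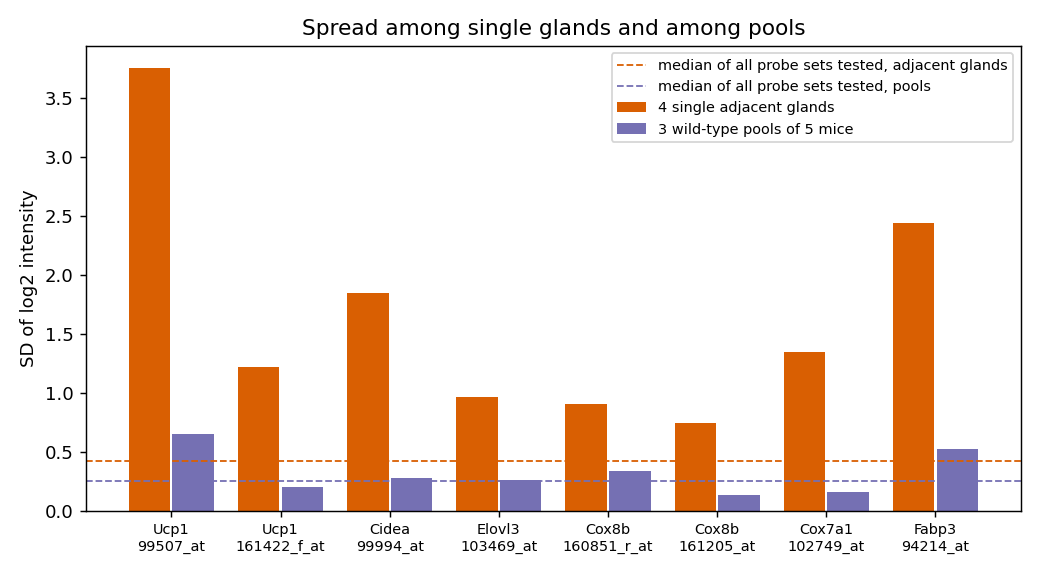
SD of log2 intensity of each brown fat probe set among 4 single adjacent glands and among 3 wild-type pools of 5 mice, with dashed lines for the medians of all probe sets tested (0.42 and 0.25). The bar of the adjacent glands exceeds that of the pools for every member probe set, with the largest gap for the Ucp1 _at probe set (3.75 and 0.65).

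Over the 7 gland arrays (adjacent glands and pools), Ucp1 tracked Cidea (Pearson r = 0.97), Cox7a1 (0.96), Cox8b (0.95 and 0.89) and Elovl3 (0.88), and its own second probe set (0.96). Fabp3 correlated with the other members at 0.23 to 0.60. These arrays fall into 2 glands low in Ucp1 and 5 samples high in it, so the coefficients mostly restate that division. The genes closest to Ucp1 (_at probe set) over those arrays were Ptprb, a receptor phosphatase of endothelium (r = 0.994), Ring1 (0.987) and Arcn1 (0.979). Over all 14 arrays only Ptprb stayed close to Ucp1, at 0.997, with Ring1 at 0.59 and Arcn1 at 0.43. Ptprb and Ucp1 (_at probe set) were both under the floor in glands 23 and 25 and in every tumor of both sets. The floor gave all these samples the same value, so it fixes much of both coefficients of Ptprb. Ptprb read 686 and 859 in glands 49 and 51, against 94.2 and 88 in glands 23 and 25, and it read 31.3 to 62.4 in tumors, against 851 to 950.2 in the pools. Of the 8 endothelial genes tested, 0 were called between the lots in limma, with a median of 0.52 and Pecam1, at -1.47 ± 0.35, the one with the smallest p (adjusted p = 0.0705 in limma). Closest to Cidea stood Mlf2 (0.987), Ucp1 itself (0.972) and Med10 (0.968). For Cox7a1 the list was Kansl2 (0.987), Cd48 (0.986) and Wbp11 (0.981), and for Fabp3 it was Tmem165, a Golgi membrane protein (0.968), Pigk (0.956) and Plod3 (0.953). With 7 points and 6397 genes searched, such values describe these arrays only.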

How the data were processed

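RNA of 14 mouse mammary samples was measured on 1-color oligonucleotide arrays. The authors deposited 1 linear intensity per probe set and array, and the software and settings behind these values are not given in the sources used here. Arrays shared a 2% trimmed mean (1500.67 to 1500.9), so these values were taken as already scaled. Probe sets were named by the platform annotation (10855 had 1 gene, 396 several, 1237 none), with 10839 symbols updated by gene number. After flooring (101.42) and log2, 66 control probe sets were left out, and so were 3806 found above the 40th percentile on fewer than 3 arrays. The test ran on the other 8616. All arrays entered 1 model of 4 groups in limma 3.58.1 under R 4.3.3 (eBayes with trend, two-sided). A model of 5 groups compared adjacent glands by lot. p-values were adjusted by Benjamini-Hochberg over all probe sets tested. The fits were tested on simulated data. The members, gene lists and the division by lot were chosen with earlier results of these data known, so no pattern known from them is independent support. Named genes were all members, their family partners, up to 3 called genes per list with the largest change (or, with no call, the gene of smallest p) and the 3 genes closest to a member in pattern; not all are named. Ebf2, Ppara, Esrra, Dio2, Tnfrsf9, Cd79a, Cd79b, Ms4a1 and Ptprc were named after their values were seen. Alternatives were other floors, filters, scalings, lot blocks, array weights and leaving out each array.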

Additional observations from a re-analysis of the deposited data

Results flagged for a closer look

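Among 15 pairs of a member probe set and a group of 4 or 5 arrays, 3 had 1 array far from the rest. Cox7a1 read 850.5 in tumor 22, above 388 to 486 in the other 4 tumors. Elovl3 read 136.8 in tumor 24, the only tumor above the floor. Fabp3 read 912.6 in tumor 24, above 17.5 to 185 in the others. The other 4 tumors were set to the floor for Elovl3, so any value above it had to stand apart. For Fabp3, tumors 50 and 52 were set to the floor, which narrowed the spread that tumor 24 was held against. Otherwise chance flags about 1 in 20 such pairs.

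Adjacent glands of lot 2004907 differed from those of lot 2001815 in 3 members in limma. Lot 2001815 holds no pool, so this compares the glands directly, and the division was made with the values known. The difference was 6.5 on the log2 scale for Ucp1, 3.15 for Cidea and 2.21 for Cox7a1 (adjusted p = 3.56e-07, 0.0269 and 0.0269), with both glands of the first lot above both of the second in each. Full separation of these glands in the opposite direction was seen in 29.7% of all probe sets tested. The share separated in the direction of these members is not given here, so 29.7% is no background for them. The floor narrows the error behind the p-value of Ucp1. Gland and lot cannot be told apart.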

How the results depend on the processing

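No paired analysis was run, because the groups share no replicate numbers and the labels do not say which samples shared a mouse. Some tumors and adjacent glands have consecutive numbers (22 and 23, 24 and 25, 49 and 50, 51 and 52). Any pairing behind these numbers is ignored in the tests. Of 1051 member differences recomputed under other settings, 926 kept direction and call, 75 lost the call, 19 gained it and 31 turned sign. With lot as a fixed block, 0 members were called lower in tumors than in pools (3 with lots 2004097 and 2004907 taken as 1 lot, whose numbers differ by swapped digits), and there Ucp1 (_at probe set) stood at 0.025 and Cox7a1 at 1.07. That Ucp1 value rests on glands 23 and 25, at the floor like the tumors of their lot. For tumors against adjacent glands the count of 5 became 3 with no filter and 2 with lot as a block or within lot 2001815. It became 3 with only both groups in the fit and 3 with glands 23 and 25 alone. Cox7a1 turned to 0.78 (block and within lot) and 0.60 (glands 23 and 25 alone). With glands 49 and 51 alone the count rose to 7, with Cox7a1 at -1.61. For adjacent glands against pools, 5 members rather than 0 were called with glands 23 and 25 alone, and Fabp3 turned to -0.62 there and to -0.12 with array weights. With lot as a block or within lot 2004907, positive values were 0.23 for Ucp1 (_f_at probe set), 0.025 for Ucp1 (_at probe set), 0.55 for Cidea, 0.19 for Cox8b (_r_at probe set) and 0.30 for Cox7a1. With glands 49 and 51 alone they were 0.15 (_f_at probe set), 0.59 (Cidea) and 0.20 (Cox7a1). Set B against the first tumors turned to 0.074 and 0.11 (quantile normalization, Cidea and Cox7a1), 0.016 and 0.094 (median scaling) and 0.042 (array weights, Cidea). Between lots of adjacent glands, median scaling called 5 members higher rather than 3. The cause of these changes was not tested.

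Leaving out 1 array at a time gave 5 to 7 members called for tumors against pools, 0 for adjacent glands against pools, 3 to 6 for tumors against adjacent glands, 5 to 7 for set B against pools and 1 to 4 between lots of adjacent glands. Fabp3 ranged from -0.60 (without gland 51) to 1.32 for adjacent gland against pool. Set B against the first tumors ranged from -0.50 to 0.20 for Cidea, -0.39 to 0.015 for Cox8b (_r_at probe set) and -0.18 to 0.12 for Cox7a1. All 8 members kept a larger SD in adjacent glands than in pools under every setting run. Over all probe sets, other settings gave 234 to 1524 called lower in tumors than in pools (1215 as reported), 2 to 145 in adjacent glands than in pools (39), 410 to 855 in tumors than in adjacent glands (779) and 622 to 1417 in set B than in pools (1031). Between lots of adjacent glands they gave 6 to 177 lower (24) and 3 to 119 higher (15). A lot as a random block had a consensus correlation of 0.15. Lot as a fixed block was not run for set B, which has a lot of its own.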
